A study of Mus musculus with 8 samples.

Results

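Goblet cells are the mucus-making cells of the gut epithelium. Their cell fate is set by Atoh1, a transcription factor that Notch signalling holds down in neighbouring absorptive cells, and their maturation depends on Spdef and on a secretory apparatus in the endoplasmic reticulum. Their granules hold the gel-forming mucin Muc2 together with smaller secreted proteins such as Clca1, Zg16 and Tff3. The genes described here are 10 named goblet cell genes, namely the regulators Atoh1, Spdef and Creb3l1, the secreted proteins Clca1, Zg16, Spink4 and Fcgbp, and the secretory machinery genes Agr2, Sytl2 and St6galnac1. A gene was measured where an array row was annotated with its symbol alone, which held for 9 of the 10, out of 19938 genes with such a row. Fcgbp was only on rows annotated with several genes and is not among the 9.

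The arrays held 8 colonic tumors of mice in 3 groups. The K-rasG12D AOM group (3 arrays) held distal colon tumors induced with azoxymethane (AOM), a colon carcinogen, in mice labelled K-rasG12Dint. The LSL AOM group (2 arrays) held AOM-induced distal colon tumors of mice labelled LSL-K-rasG12D/+, whose titles call them wt. LSL is short for lox-stop-lox, a block to transcription that Cre recombinase can cut out. The serrated group (3 arrays) held proximal colon tumors called serrated, from mice with K-rasG12Dint and with Ink4a/Arf-/-, the locus of the Cdkn2a inhibitors. All groups carry a K-ras allele labelled with G12D. The promoter or Cre behind the label int, the ages, the strain and whether each tumor came from its own animal are not given in the sources used here, so the spread behind each p-value is that between these samples, and it may be technical in part. Tumor type, colon segment, AOM and Ink4a/Arf genotype cannot be told apart in comparisons with the serrated group, and no normal colon was measured. Against LSL AOM tumors, and so in part against all AOM tumors, the K-ras label differs as well and cannot be told apart from these.

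Values are log2 signals, so a difference of 1 is a 2-fold difference in signal. On each array the median gene stood between 4.17 and 4.31. Serrated replicate 1 had a narrower spread over genes (SD 1.77) than the other arrays (SD 2.00 to 2.13). The pan-epithelial markers, 9 measured, had 0 members called in serrated against AOM tumors, and their mean level ran from 9.60 to 10.05 on AOM arrays and from 9.81 to 10.05 on serrated arrays. The adhesion protein Epcam stood between 10.08 and 10.45 on all arrays. The goblet label was checked on Muc2 and Tff3, the defining mucin and trefoil peptide of these cells. Muc2 stood at 9.20, 7.86 and 10.72 in K-rasG12D AOM tumors, at 9.25 and 10.76 in LSL AOM tumors and at 11.06, 9.96 and 10.39 in serrated tumors. Tff3 stood at 7.57, 6.34 and 8.85, at 9.55 and 10.03, and at 10.32, 9.86 and 9.26 in the same order. Both lay well above the median gene on each array, and both were lowest on K-rasG12D AOM replicate 2.

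The first question was whether goblet genes differ between serrated and AOM tumors. In serrated tumors Clca1, Sytl2, Spdef, Creb3l1 and St6galnac1 rose against AOM tumors (the average of the 2 AOM group means), while Zg16, Agr2, Atoh1 and Spink4 did not pass the test. A gene passed where limma gave a Benjamini-Hochberg adjusted p under 0.05, with the adjustment made across the 19938 genes. So 5 of 9 goblet genes rose and 0 fell, beside 9.38% of all genes called in either direction, 3.62% called higher and 5.76% called lower. The goblet genes were chosen with earlier results of these data known, so these shares set beside each other are a description. In 5 of 9, Clca1, Agr2, Sytl2, Spdef and Creb3l1, every serrated array lay above every AOM array, beside 7.24% of all genes. The median log2 difference was 0.96 over the 9 genes and 0.04 over all genes. When any single array was left out, 3 or 4 of the 9 passed (3 without LSL AOM replicate 1), and without serrated replicate 1, the array with the narrow spread, 4 did. In bulk tumor RNA, more goblet cells, more RNA per goblet cell and signal from other cells that express these genes cannot be told apart.

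**Figure D1:**
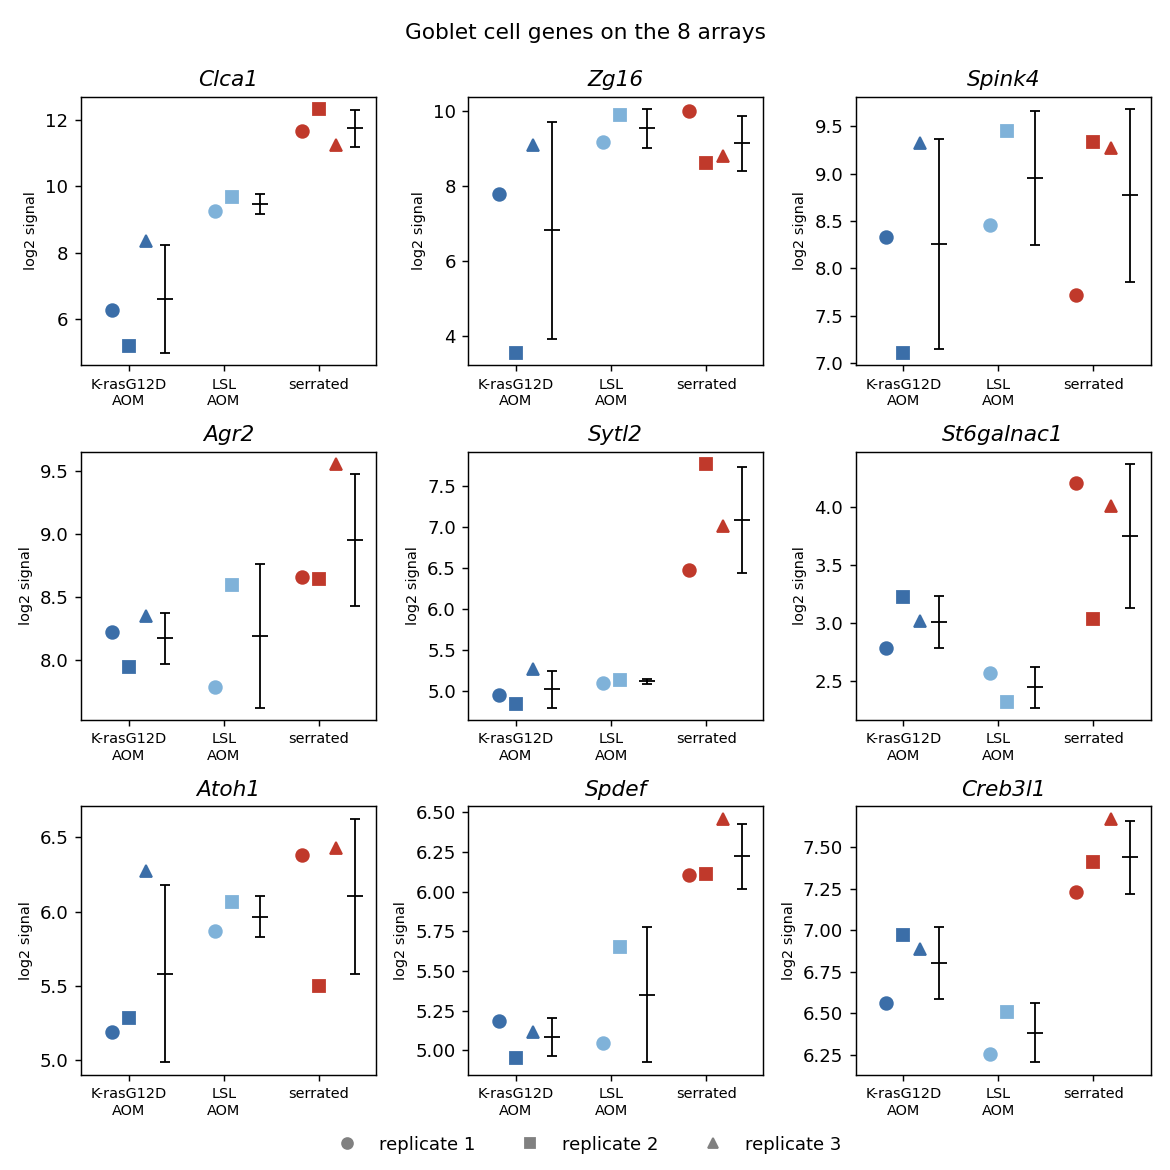
Each panel plots 1 goblet gene, with the log2 signal on the vertical axis (ranges differ between panels) and the 3 tumor groups on the horizontal axis; each marker is 1 array, its shape gives the replicate number, and the bar beside it is the mean ± SD. In Clca1, Agr2, Sytl2, Spdef and Creb3l1 all 3 serrated arrays lie above all 5 AOM arrays, while Zg16, Spink4, Atoh1 and St6galnac1 overlap.

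Of the secreted proteins, Clca1 differed most. Clca1 is a metalloprotease-like protein packed into goblet granules and released with the mucus. Its level was 6.27, 5.18 and 8.36 in K-rasG12D AOM tumors, 9.26 and 9.68 in LSL AOM tumors, and 11.66, 12.34 and 11.25 in serrated tumors. The 3 groups did not overlap: K-rasG12D AOM arrays were lowest, LSL AOM arrays intermediate and serrated arrays highest. The AOM groups did not overlap in 32.1% of all genes. Group means were 6.60 ± 1.62 (SD, n = 3) for K-rasG12D AOM, 9.47 ± 0.30 (SD, n = 2) for LSL AOM and 11.75 ± 0.55 (SD, n = 3) for serrated tumors. Serrated tumors stood 3.71 ± 0.61 (SE) log2 units above the AOM tumors, a 13.1-fold higher signal (limma adjusted p = 0.00823), and this passed without each array in turn.

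Zg16, a small lectin-like protein that binds bacterial cell walls in colonic mucus, did not separate serrated from AOM tumors. Its level was 7.79, 3.56 and 9.10 in K-rasG12D AOM tumors, 9.16 and 9.90 in LSL AOM tumors, and 9.98, 8.62 and 8.79 in serrated tumors. Serrated arrays overlapped with both AOM groups, and K-rasG12D AOM replicate 2 lay far below the other arrays. The log2 difference of serrated against all AOM tumors was 0.96 ± 1.06 (SE), with a 95% interval from -1.45 to 3.36 (limma adjusted p = 0.605). Without K-rasG12D AOM replicate 2 it was 0.14.

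Spink4, a Kazal-type peptide secreted by goblet cells, overlapped between all groups. Its level was 8.33, 7.11 and 9.32 in K-rasG12D AOM tumors, 8.46 and 9.45 in LSL AOM tumors, and 7.72, 9.33 and 9.27 in serrated tumors. All 3 groups held both high and low arrays, and the lowest serrated array was replicate 1. The log2 difference was 0.17 ± 0.55 (SE), with a 95% interval from -1.07 to 1.40 (limma adjusted p = 0.872), and its sign turned without K-rasG12D AOM replicate 2, serrated replicate 2 or 3, or LSL AOM replicate 1 (-0.12 to -0.08).

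Among the secretory machinery genes, Sytl2 gave the smallest p-value of the goblet genes. It encodes a synaptotagmin-like protein that links Rab27 to the membrane in vesicle exocytosis. Its level was 4.95, 4.85 and 5.28 in K-rasG12D AOM tumors, 5.10 and 5.14 in LSL AOM tumors, and 6.48, 7.77 and 7.01 in serrated tumors. The AOM arrays lay within 0.43 of each other, and each serrated array was more than 1 log2 unit above the highest of them. The log2 difference was 2.01 ± 0.27 (SE), a 4.03-fold higher signal (limma adjusted p = 0.00342).

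Agr2, a protein disulfide isomerase of the endoplasmic reticulum that goblet cells need to make Muc2, was higher on every serrated array without passing the test. Levels were 8.22, 7.95 and 8.35 in K-rasG12D AOM tumors, 7.79 and 8.59 in LSL AOM tumors, and 8.66, 8.64 and 9.55 in serrated tumors. The serrated arrays lay above all AOM arrays and the AOM groups overlapped with each other, but serrated replicates 1 and 2 exceeded LSL AOM replicate 2 by little, and only replicate 3 stood clearly higher. Serrated minus AOM was 0.77 ± 0.27 (SE), with a 95% interval from 0.16 to 1.39 before adjustment (limma adjusted p = 0.115).

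St6galnac1, the sialyltransferase that caps mucin O-glycans with sialic acid, was dim. Levels were 2.78, 3.22 and 3.02 in K-rasG12D AOM tumors, 2.57 and 2.32 in LSL AOM tumors, and 4.20, 3.04 and 4.0 in serrated tumors. Serrated replicate 2 lay within the range of the K-rasG12D AOM arrays, and the gene was below the median gene in its mean over all arrays. On the log2 scale serrated tumors were higher by 1.02 ± 0.27 (SE; limma adjusted p = 0.0468). Quantile normalization ended the call (adjusted p = 0.0702), as did leaving out any array but serrated replicate 2 (0.0685 to 0.137).

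Among the regulators, Spdef, an ETS-family transcription factor of goblet and other mucous cells, rose. Its level was 5.18, 4.95 and 5.12 in K-rasG12D AOM tumors, 5.05 and 5.65 in LSL AOM tumors, and 6.10, 6.11 and 6.46 in serrated tumors. No serrated array overlapped with an AOM array, and within the AOM groups LSL AOM replicate 2 was highest. The log2 difference was 1.01 ± 0.18 (SE), a 2.01-fold higher signal (limma adjusted p = 0.0126), and it passed without each array in turn.

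Creb3l1, a membrane-bound transcription factor that is cleaved on the way from the endoplasmic reticulum and drives secretory pathway genes, also rose. Levels were 6.56, 6.97 and 6.89 in K-rasG12D AOM tumors, 6.26 and 6.51 in LSL AOM tumors, and 7.23, 7.41 and 7.67 in serrated tumors. The 3 groups did not overlap, with LSL AOM arrays lowest, which is the reverse of the order of the AOM groups in Clca1. K-rasG12D AOM tumors stood 0.42 above LSL AOM tumors, which did not pass (limma adjusted p = 0.682). The AOM groups did not overlap in 32.1% of all genes, so their order is no result about this gene. On the log2 scale serrated tumors were higher by 0.84 ± 0.17 (SE; limma adjusted p = 0.0190). The call was lost when serrated replicate 2 (adjusted p = 0.0786) or LSL AOM replicate 1 (0.0755) was left out.

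Atoh1, the factor that commits progenitors to the secretory lineage, did not pass. Levels were 5.19, 5.28 and 6.27 in K-rasG12D AOM tumors, 5.87 and 6.06 in LSL AOM tumors, and 6.38, 5.50 and 6.43 in serrated tumors. Serrated replicate 2 lay among the AOM arrays, and the other serrated arrays lay just above the highest AOM array. Serrated minus AOM was 0.33 ± 0.31 (SE), with a 95% interval from -0.37 to 1.03 (limma adjusted p = 0.539).

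The RefSeq promoter table (GRCm38.p6) held Spdef, Agr2, Atoh1 and Fcgbp of the 10 genes. Shown are the 250 bases before the start of Spdef and of Agr2, a regulator and a secretory enzyme whose serrated arrays all lay above the AOM arrays. Capitals mark TTTATG or its reverse complement CATAAA, the core of sites of the kind the intestinal factor Cdx2 binds, which was chosen after the sequences were seen.
Spdef, chr17:27728952-27729201, minus strand: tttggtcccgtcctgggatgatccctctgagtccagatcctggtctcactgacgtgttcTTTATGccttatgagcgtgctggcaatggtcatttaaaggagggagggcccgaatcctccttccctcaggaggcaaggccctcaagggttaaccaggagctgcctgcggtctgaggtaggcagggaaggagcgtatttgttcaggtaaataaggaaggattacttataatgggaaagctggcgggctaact
Agr2, chr12:35992675-35992924, plus strand: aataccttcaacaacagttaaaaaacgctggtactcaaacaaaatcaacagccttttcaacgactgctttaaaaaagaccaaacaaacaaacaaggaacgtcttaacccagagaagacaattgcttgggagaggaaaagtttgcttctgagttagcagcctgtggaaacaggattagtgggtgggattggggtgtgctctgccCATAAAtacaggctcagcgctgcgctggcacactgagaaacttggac

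The TTTATG core began 191 bases before the start of Spdef and 47 bases before that of Agr2, and it was in 10.8% of 32851 promoter windows of this length. Both strands were searched. The windows of Atoh1 and Fcgbp did not hold it, so the 2 windows shown are those with a match. The E-boxes CAGCTG and CAGATG, of the kind Atoh1 binds, were in 13% and 14.4% of windows, and CCGGAT, a core of the kind Spdef binds, in 4.94%. The windows of Spdef, Agr2 and Atoh1 held none of these, and the first E-box was in that of Fcgbp. A forkhead core TGTTTA, also chosen after the sequences were seen, was in 12.0% of windows and in none of the 4. A match describes letters in a window and shows no binding.

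The serrated group was also set against each AOM group, which asks whether the goblet differences depend on the AOM group used. These comparisons share the serrated arrays, so their values are given side by side. Against K-rasG12D AOM tumors 3 of 9 goblet genes rose, Clca1, Sytl2 and Spdef, and 0 fell, beside 6.45% of all genes called, 2.46% higher and 3.99% lower. Against LSL AOM tumors 2 of 9 rose, Sytl2 and Creb3l1, and 0 fell, beside 5.71% of all genes called, 2.31% higher and 3.4% lower.

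Clca1 stood 5.15 ± 0.68 (SE) log2 units above K-rasG12D AOM tumors (limma adjusted p = 0.00462) and 2.28 ± 0.76 above LSL AOM tumors (0.128). The difference from LSL AOM tumors did not pass although the arrays did not overlap, and it passed without K-rasG12D AOM replicate 3 (0.0287). Sytl2 differed by 2.06 ± 0.30 (0.00640) and 1.96 ± 0.33 (0.0144), nearly equal steps from either AOM group. The second of these did not pass without LSL AOM replicate 1 (0.112) or 2 (0.106). Spdef differed by 1.14 ± 0.20 (0.0150) and 0.87 ± 0.23 (0.0612). Its first difference did not pass without K-rasG12D AOM replicate 1 (0.0519) or 2 (0.0766) or serrated replicate 2 (0.0524). Creb3l1 differed by 0.63 ± 0.19 (0.0869) and 1.06 ± 0.21 (0.0255). Its second difference lost the call when serrated replicate 2 (0.0800) or either LSL AOM array (0.196 and 0.113) was left out. With only the groups compared in the fit, neither Sytl2 nor Creb3l1 passed against LSL AOM tumors, and Clca1 did.

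The remaining genes did not pass against either AOM group. Agr2 differed by 0.78 (limma adjusted p = 0.171) from K-rasG12D AOM and by 0.76 (0.247) from LSL AOM tumors. St6galnac1 differed by 0.74 (0.186) and 1.30 (0.0558), and each passed without serrated replicate 2 (0.0462 and 0.0176). Zg16 differed by 2.31 (0.297) from K-rasG12D AOM tumors, which was 0.69 (0.636) without K-rasG12D AOM replicate 2, and by -0.40 (0.897) from LSL AOM tumors. Atoh1 and Spink4 lay between -0.18 and 0.52 in these comparisons.

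**Figure D2:**
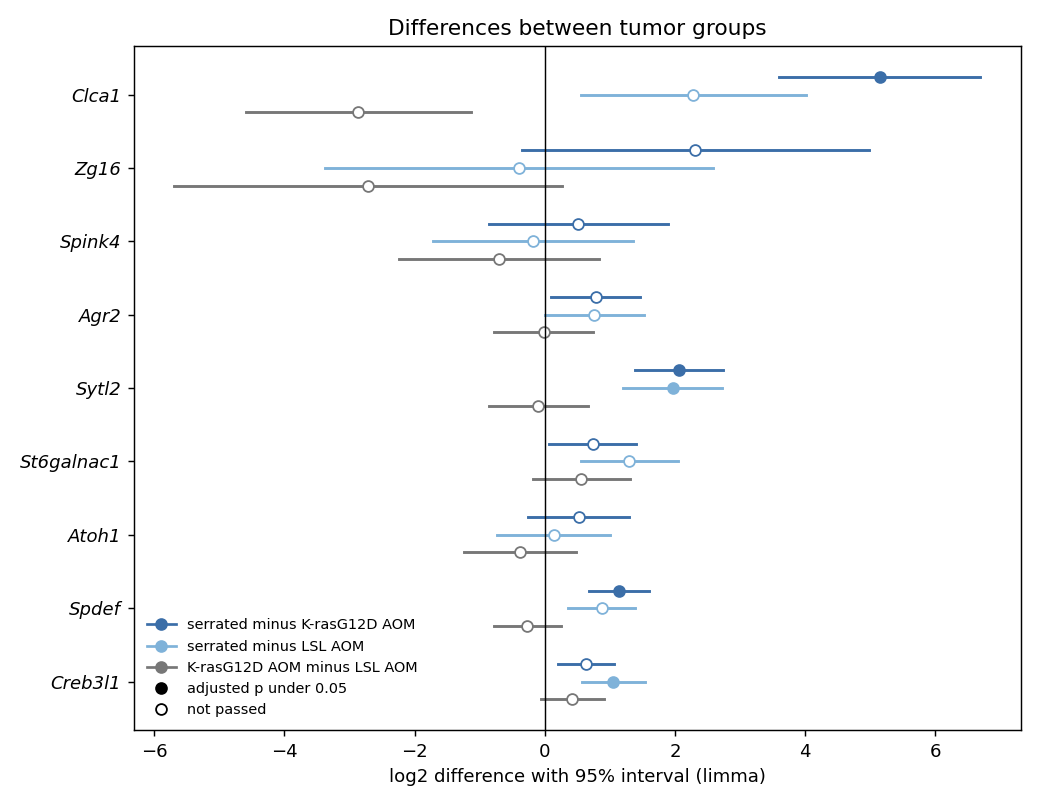
Points are log2 differences between tumor groups for the 9 goblet genes with 95% intervals from limma before adjustment for multiple tests, and filled points passed an adjusted p of 0.05. Sytl2 is filled against both AOM groups, with 2.06 and 1.96, and no point of K-rasG12D AOM minus LSL AOM (gray) is filled.

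The AOM groups were then set against each other, which asks whether the K-ras genotype label goes with goblet gene levels among AOM tumors. No goblet gene passed, and 0 of 19938 genes were called in limma (0%). At an unadjusted p under 0.05 there were 1 goblet gene, Clca1, and 1666 of all genes. Clca1 was lower in K-rasG12D AOM tumors by a log2 difference of -2.87 ± 0.76 (SE), with a 95% interval from -4.59 to -1.14 (adjusted p = 0.327). Zg16 differed by -2.71 ± 1.31 (0.660) and by -1.09 without K-rasG12D AOM replicate 2. The secreted products Clca1 and Zg16 were lower, and Creb3l1 and St6galnac1 higher, on all K-rasG12D AOM arrays than on the LSL AOM arrays, beside 32.1% of all genes whose AOM groups did not overlap in either direction. Agr2 differed by -0.02, with a 95% interval from -0.78 to 0.75, and Sytl2 by -0.10, from -0.86 to 0.66.

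Goblet genes also varied among the 5 AOM arrays, with no test of a difference by role. The measured secreted products covered 6.34 log2 units in Zg16, 4.50 in Clca1 and 2.34 in Spink4, and 2.11, 3.41 and 1.12 without K-rasG12D AOM replicate 2, an alternative chosen after seeing the data. Reg4, another secreted goblet product, covered 0.76. Machinery genes and regulators covered 0.43 in Sytl2, 0.70 in Spdef, 0.71 in Creb3l1, 0.80 in Agr2, 0.90 in St6galnac1 and 1.08 in Atoh1. K-rasG12D AOM replicate 2 was the lowest of the 8 arrays in 5 of the 9 genes, Clca1, Zg16, Spdef, Sytl2 and Spink4. Muc2 and Tff3 were lowest on the same array. On serrated arrays, 8, 5 and 7 of the 9 genes in replicates 1, 2 and 3 lay above the highest AOM array. No share over all genes was taken for these counts on single arrays, so they are no result about the goblet genes.

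Other goblet secretory genes were read from a list with 19 measured, also chosen with earlier results of these data known. Of these, 7 rose in serrated against all AOM tumors, 0 fell and 12 did not pass, with a median log2 difference of 1.13, beside the same 3.62% of all genes called higher. Fer1l6, a ferlin-family gene, rose by 3.81 ± 0.47 (SE; limma adjusted p = 0.00234), and Gcnt3, which makes branched mucin O-glycan cores, by 3.45 ± 0.45 (0.00303). B3gnt6, the enzyme of the core 3 mucin glycan, rose by 1.20 ± 0.18 (0.00581), and Bcas1 by 2.47 ± 0.42 (0.00961). Muc2 differed by 0.84 ± 0.61 (0.430) and Tff3 by 1.13 ± 0.50 (0.205), and neither passed. The genes of the list below 0 were Reg4 (-1.06, adjusted p = 0.372), Nans (-0.41, 0.232) and Ang4 (-0.07, 0.960), and none of them passed. Leaving out 1 array gave 4 rising genes without either LSL AOM array, and 8 rising and 1 falling without serrated replicate 3. Against K-rasG12D AOM tumors 7 rose, beside 2.46% of all genes called higher, and against LSL AOM tumors 4 did, beside 2.31%.

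Of 13 other regulators of the secretory lineage, 3 rose, 2 fell and 8 did not pass, with a median log2 difference of 0.13, beside 3.62% of all genes called higher and 5.76% called lower. Klf4, a zinc finger factor needed for colonic goblet cell maturation, rose by 1.93 ± 0.27 (SE; limma adjusted p = 0.00398). Its level was 6.65, 7.17 and 7.54 in K-rasG12D AOM tumors, 6.32 and 6.94 in LSL AOM tumors, and 9.03, 9.04 and 8.34 in serrated tumors, with no overlap. Cdx2, the homeobox factor of intestinal identity, rose by 2.56 ± 0.27 (0.00130). Ern2, an endoplasmic reticulum stress sensor of mucous cells named after its values were seen, rose by 1.32 ± 0.30 (0.0296). Sox9, a progenitor and Paneth cell factor, fell by 1.40 ± 0.26 (0.0143), and Foxa2, a forkhead factor that activates Muc2, fell by 1.07 ± 0.19 (0.0120). Ern2 did not pass when any AOM array or serrated replicate 2 was left out (0.0571 to 0.128). Without serrated replicate 2, 2 of the 13 rose and 0 fell, with Sox9 (0.0773) and Foxa2 (0.0663) not passing, and without LSL AOM replicate 1, 2 rose and 1 fell, with Sox9 not passing (0.0570).

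**Figure D3:**
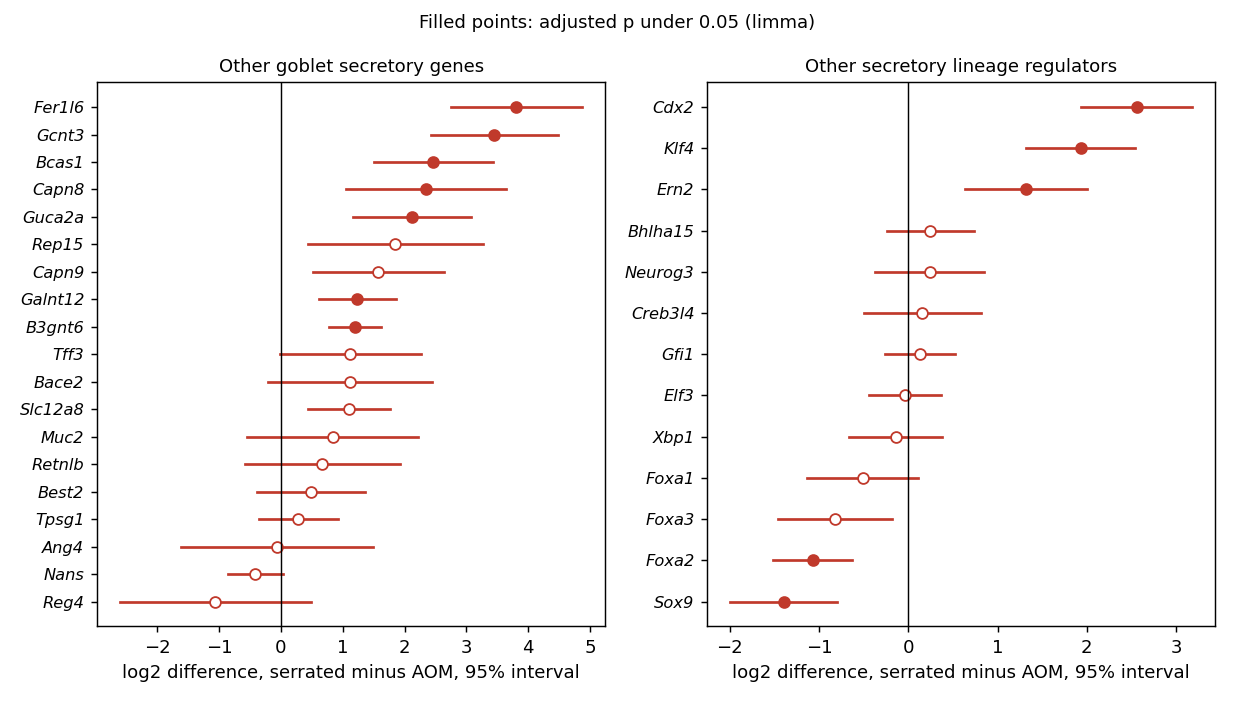
Points are log2 differences of serrated minus AOM tumors with 95% intervals from limma, for 19 other goblet secretory genes (left) and 13 other regulators (right); filled points passed an adjusted p of 0.05. On the left 7 filled points lie above 0, and Muc2 and Tff3 are open; on the right Cdx2, Klf4 and Ern2 lie above and Foxa2 and Sox9 below 0.

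Notch signalling opposes Atoh1 in progenitors. Of 12 Notch pathway genes, 1 rose, 2 fell and 9 did not pass in serrated against all AOM tumors, beside 3.62% of all genes called higher and 5.76% called lower, and with so few genes these counts are no result about the list. The receptor Notch1 fell by 1.39 ± 0.18 (SE; limma adjusted p = 0.00278), and Lfng, a glycosyltransferase that modifies Notch, by 1.46 ± 0.16 (0.00133). Olfm4, a stem cell glycoprotein that is a Notch target, rose by 4.29 ± 0.90 (0.0219), a call that was lost without serrated replicate 2, K-rasG12D AOM replicate 2 or either LSL AOM array (0.0537 to 0.0998). Hes1, the repressor through which Notch holds down Atoh1, differed by -0.64 ± 0.30 and did not pass (0.219).

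Markers of other mucous and epithelial cells moved as well. Stomach mucous cells also express Agr2 and Spdef, and of 10 gastric mucous markers 8 rose, 0 fell and 2 did not pass, beside 3.62% of all genes called higher. Their mean level ran from 3.18 to 4.12 on AOM arrays and stood at 6.12, 10.12 and 9.84 on serrated replicates 1, 2 and 3. The gastric mucin Muc5ac stood between 2.64 and 2.97 on AOM arrays and at 6.28, 10.73 and 10.36 on serrated arrays. The mean over the 9 goblet genes ran from 5.45 to 7.03 on AOM arrays and stood at 7.60, 7.64 and 7.83 on serrated arrays. Serrated replicate 1 was thus far below the other serrated arrays in the gastric list and close to them in the goblet mean. Of the 3 serrated arrays it was the highest in Zg16, St6galnac1 and Muc2, intermediate in Clca1, Agr2 and Atoh1, and the lowest in Spdef, Sytl2, Creb3l1 and Spink4. This order is of log2 levels, and that array had the narrower spread. By percentile among the genes of its own array, serrated replicate 1 was also highest in Spdef (83.6 against 78.0 and 79.8), Creb3l1 (93.5 against 91.6 and 92.2) and Atoh1 (86.6 against 69.6 and 79.4). By percentile it was intermediate in Sytl2 and still lowest in Spink4.

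Of 12 absorptive cell markers 10 rose and 0 fell, with mean levels from 4.72 to 6.31 on AOM and from 8.17 to 8.99 on serrated arrays. Of 8 Paneth cell markers, which belong to the same secretory lineage, 0 rose and 4 fell, among them Mmp7 by 4.38 ± 0.27 (SE; limma adjusted p = 0.000102) and Lyz1, which has a near-identical copy, by 3.50 ± 0.57 (0.00775). The other 4 did not pass, with Ang5 (0.51), Mptx1 (0.36) and Itln1 (0.05) above 0 and the defensin gene Defa24 (-1.23) below 0. So the list did not move as a whole. Of 12 enteroendocrine markers 2 rose and 0 fell, the hormone genes Nts and Sst, and of 8 tuft cell markers 1 rose and 0 fell, the channel gene Trpm5. Beside 3.62% of all genes called higher and 5.76% called lower, counts of 1 or 2 calls are no result about those lists. Each of these 3 calls was lost when serrated replicate 2, K-rasG12D AOM replicate 1 or either LSL AOM array was left out (0.0558 to 0.154), and for Sst and Trpm5 also without K-rasG12D AOM replicate 2 or 3 or serrated replicate 1. Of 12 stromal and immune markers 0 rose and 4 fell, with mean levels from 6.33 to 6.94 on AOM and from 5.52 to 6.48 on serrated arrays. The part of these other cell types in the goblet gene differences was not tested.

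**Figure D4:**
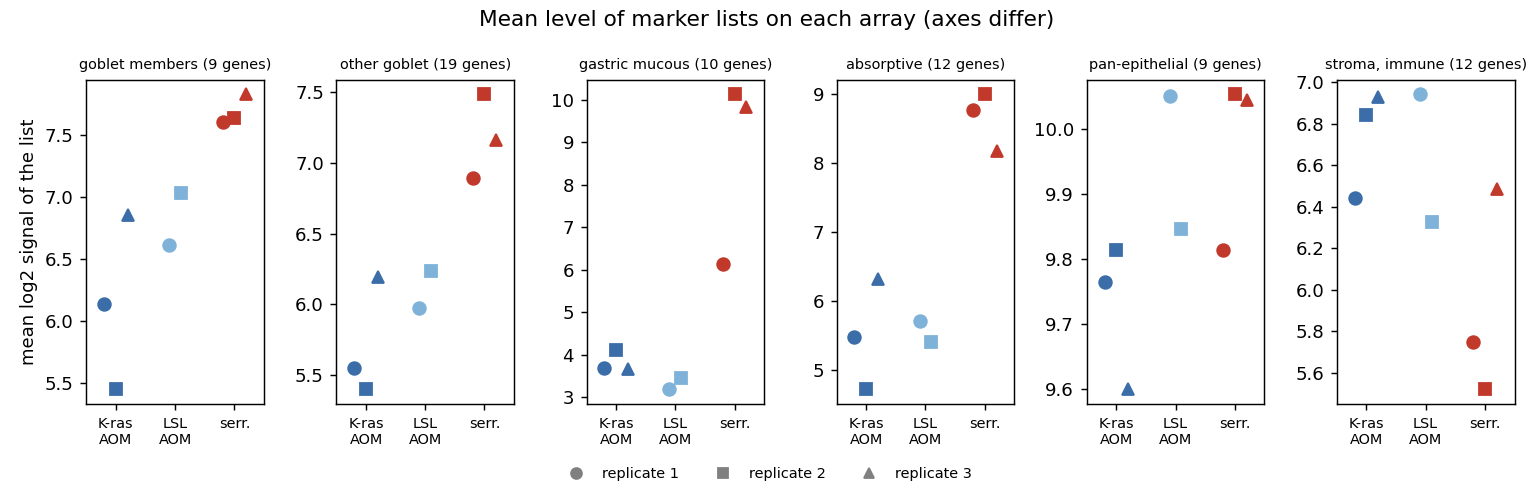
Each panel plots the mean log2 signal of 1 gene list on each of the 8 arrays, with the 3 tumor groups on the horizontal axis, a vertical range of its own and marker shape for the replicate number. Goblet genes on the 3 serrated arrays lie between 7.60 and 7.83, while gastric mucous markers on the same arrays run from 6.12 to 10.12.

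The genes most like the goblet set were found from the distance between each gene's standardized profile over the 8 arrays and the mean standardized profile of the 9 genes, among 9961 genes above the median level. The nearest were 2610528A11Rik (distance 0.81), Ildr1 (0.83), Mgat4c (0.84), Cutal (0.86) and Glod5 (0.87). The same arrays enter all profiles, and the distance is a description. Of the goblet genes themselves, Spdef lay closest to their mean profile (1.03), followed by Clca1 (1.24) and Agr2 (1.25), and Spink4 (2.32) and St6galnac1 (2.14) lay farthest.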

How the data were processed

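Total RNA of 8 tumors was labelled with biotin and hybridised to 1 array each. The deposited values are log2 signals that the authors made with GCOS and RMA, per the submitters' processing notes. For versions, settings and chip annotation, nothing is given in the sources used here. The quartiles of the arrays differ, so the deposited values do not share 1 distribution. Of 35557 probe sets, 21789 carried 1 gene symbol, and for the 999 genes with several probe sets the brightest over all arrays was taken. No filter or scaling was applied. Each of the 9 goblet genes had 1 probe set.

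Contrasts came from 1 limma fit (version 3.58.1, R 4.3.3) of the 3 group means on the 8 arrays together (5 residual degrees of freedom), so the groups share 1 spread per gene. Data were simulated with normal noise of 1 spread per gene on all arrays and changes in a small share of the 19938 genes. The fit then recovered 98.4% of 4-fold but 56% of 2-fold changes in serrated against all AOM tumors. Of 2-fold changes it recovered 42.5% in serrated against K-rasG12D AOM, 21.4% in serrated against LSL AOM and 22.7% between the AOM groups. The deposited arrays differ in spread. They gave calls in 9.38% of all genes in serrated against all AOM tumors, a larger share than was changed in the simulation. For both reasons recovery on them may be unlike this. A gene that did not pass may still differ. The members and gene lists were chosen with earlier results of these data known. All goblet genes were named, and from each other list Muc2, Tff3, Klf4, Hes1 and Muc5ac and up to 4 genes of smallest adjusted p. Alternatives were other eBayes options, normalizations, probe set rules, a filter on dim genes, array weights, only the compared groups, and leaving out each array. The number of arrays limits the precision.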

Additional observations from a re-analysis of the deposited data

How the results depend on the processing

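Of 125 values of single goblet genes under alternatives for serrated against all AOM tumors, 108 kept their direction and their side of the threshold, 11 lost and 1 gained a call and 5 turned in sign. Among the 9 goblet genes, leaving out 1 array gave 3 to 4 calls against all AOM tumors (3 without LSL AOM replicate 1), 2 to 3 against K-rasG12D AOM tumors, 0 to 3 against LSL AOM tumors (0 without either LSL AOM array) and 0 between the AOM groups. Fitting only the groups compared gave 1 call against LSL AOM tumors, with 332 of all genes called. That call was Clca1, while Sytl2 and Creb3l1, which the main fit called, did not pass. Array weights gave 6 calls against K-rasG12D AOM and 4 against LSL AOM tumors, with 9962 and 6356 of all genes called. These weights did not converge and gave serrated replicate 2 a weight of 25.6 against 0.17 to 2.01 elsewhere. Against all AOM tumors they called 10334 of all genes, where the main fit called 1871. Over all genes, calls against all AOM tumors ran from 643 without serrated replicate 2 to 3874 without replicate 3, against K-rasG12D AOM tumors from 390 to 3186 and against LSL AOM tumors from 176 to 2530 when 1 array was left out. Between the AOM groups 0 to 4 of all genes were called without 1 array, 4 with only these groups in the fit and 123 with array weights. Quantile normalization gave 4 goblet calls against all AOM tumors, with 2448 of all genes called. It called 1949 of all genes in serrated against K-rasG12D AOM tumors, 1774 in serrated against LSL AOM tumors and 0 between the AOM groups. The list of other goblet genes had 4 to 9 calls without 1 array and 14 with array weights, and the regulators had 2 to 6 without 1 array; both counts were added after seeing the data. Filtering dim genes removed St6galnac1.

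Signs turned only in values that had not passed. With array weights Atoh1 was -0.20 against all AOM and -0.45 against LSL AOM tumors, and Spink4 was 0.36 against LSL AOM tumors. Leaving out 1 array moved Spink4 over -0.12 to 0.69 against all AOM tumors (below 0 without K-rasG12D AOM replicate 2 at -0.12, serrated replicates 2 at -0.11 and 3 at -0.08, and LSL AOM replicate 1 at -0.08), over -0.055 to 1.05 against K-rasG12D AOM and over -0.68 to 0.34 against LSL AOM tumors. Atoh1 moved over -0.027 to 0.44 against LSL AOM tumors. Between the AOM groups Agr2 moved over -0.42 to 0.38 and Spdef over -0.57 to 0.035. The cause was not tested. No paired analysis was possible because the labels give no pairing of samples between groups. The replicate numbers only tell the arrays of 1 group apart.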

Other observations

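Fcgbp, a large mucus protein that is linked to Muc2 in the goblet granule, shared its rows with other genes. A row annotated with both 9530053A07Rik and Fcgbp stood at 4.28, 4.06 and 4.76 in K-rasG12D AOM tumors, 4.60 and 5.27 in LSL AOM tumors, and 6.48, 5.17 and 4.99 in serrated tumors. LSL AOM replicate 2 lay above serrated replicates 2 and 3, so the groups overlapped. Which of the 2 genes the signal came from cannot be told apart. The other 2 rows that name Fcgbp also name the ribosomal protein gene Rpl41, and all their values lay between 9.51 and 10.56.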
